A study of Mus musculus with 2 samples.

Results

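The collagen genes were taken from read counts of mouse medullary thymic epithelial cells (mTEC), the cells of the thymic medulla that show tissue antigens to developing T cells. A gene was a member when its mouse symbol read Col, a number, a and a number, and the transcript that held the most reads, both libraries added, stood for it. Of 44 such symbols in the RefSeq gene table, 43 were matched to an accession in the files, out of 23411 genes in all. Col12a1 was not matched and was not analysed here. The 43 genes were sorted into 11 fibrillar, 6 basement membrane, 8 FACIT and 4 transmembrane collagens and 14 others.

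Both groups are mTEC of B6 mice, sorted by flow cytometry on surface MHC class II, high or low (called the high and the low library here). The cells of each fraction came from a pool of 3 mice, and each fraction gave 1 library. The labels name no genetic change, treatment or age, and the title of the series concerns Sirt1 and the tolerance brought about by Aire. As no group was repeated, no p-value is given, and every difference is one between these 2 libraries.

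Collagens are matrix proteins whose chains wind into a helix of 3 strands, which needs glycine at every turn of a Gly-X-Y repeat. Fibrillar collagens have a long unbroken repeat and pack into the fibrils of connective tissue, while network collagens such as type IV have many breaks and form the sheet under epithelia and around vessels. FACIT collagens (fibril-associated collagens with interrupted triple helices) sit on the surface of fibrils, and transmembrane collagens anchor cells to the matrix. In the thymus, fibroblasts and vessels of the capsule, septa and perivascular spaces are known to make much of the collagen. mTEC also express tissue-restricted proteins, and several collagens, types II, IV, VII and XVII among them, are known autoantigens.

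The repeat that makes these genes a family can be read in their coding sequences. The stretches below, from the GENCODE vM21 transcripts that carry the RefSeq accession of the files, belong to members on which the results turn. They are shown to contrast an unbroken repeat with the broken one of type IV. Capitals mark glycine codons, and codons are numbered from the start codon.
Col3a1, codons 164 to 179: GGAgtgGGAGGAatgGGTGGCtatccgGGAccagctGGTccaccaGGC
Col4a1, codons 215 to 234: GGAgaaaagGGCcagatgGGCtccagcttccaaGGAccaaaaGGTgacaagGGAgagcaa
Col6a1, codons 256 to 271: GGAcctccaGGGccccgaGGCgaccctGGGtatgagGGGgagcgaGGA
Col6a2, codons 271 to 286: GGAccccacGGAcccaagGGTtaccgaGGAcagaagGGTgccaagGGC
Col10a1, codons 302 to 317: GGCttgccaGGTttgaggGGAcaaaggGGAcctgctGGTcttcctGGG
Col17a1, codons 651 to 666: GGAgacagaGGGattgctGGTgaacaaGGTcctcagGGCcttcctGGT

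In the Col4a1 stretch 2 codons without a glycine part the repeat, and it resumes after them. Over the whole coding sequence, the longest unbroken run had 344 triplets in Col3a1, 40 in Col4a1, 87 in Col6a1, 87 in Col6a2, 60 in Col10a1 and 55 in Col17a1. By class, the longest run spanned 216 to 344 triplets in the fibrillar genes (median 338), where Col24a1 (216) and Col27a1 (217) had the shortest. It spanned 39 to 66 triplets in the basement membrane genes, each of which had 23 to 27 separate runs. The ranges were 32 to 113 triplets for FACIT, 40 to 55 for transmembrane and 23 to 87 for the other collagens. All 43 members had a coding sequence with such runs.

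Reads on genes numbered 138368535 in the high library and 56077479 in the low one. Of these, 0.145% and 0.462% lay on the collagens, 200567 and 259349 reads. Values are CPM, read counts divided by the library total, on totals scaled by TMM, a method that sets most genes equal, or, where genes are compared with each other, levels in CPM per kilobase of transcript. A ratio is high over low, and its interval (exact, Clopper-Pearson, 95%) covers counting error in the reads only. A gene counts as higher or lower if the interval lies beyond 2-fold at both ends, and genes were compared when their mean CPM over both libraries was at least 1. As a check of the labels, the epithelial keratin gene Krt8 was at 1569 CPM in the high library and 1955 CPM in the low one, and the mature mTEC gene Aire was at 571 and 21.0 CPM. NR_046233, an accession with no symbol, took 0.679% of the high and 7.08% of the low library.

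Most collagens that differed were lower in MHC-II high mTEC, and the type VI genes Col6a1 and Col6a2 differed most. All 43 collagens passed the minimum, with 209 to 37732 reads in the high library and 41 to 65999 in the low one. Among them 13 were lower, against 10.9% of all 17438 genes compared, and 3 were higher, against 14.5% of all genes. The other 27 were neither. The 13 lower genes make 30.2% of the collagens, and the 3 higher ones, Col10a1, Col5a3 and Col9a1, make 6.98%. The median log2 ratio was -0.20 over the collagens and -0.01 over all genes, with 20 collagens above 0 and 23 below. Fibroblast markers had a summed 442 CPM in the high library against 3263 CPM in the low, and endothelial markers 64.5 against 462 CPM. Their part in the differences of the collagens was not tested. In bulk samples such as these, fewer cells of a type and less RNA per cell cannot be told apart.

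The count of lower genes depends on how the libraries are scaled. With unscaled read totals 13 collagens were lower and 5 higher, against 7.35% and 19.8% of all genes. With the totals that the deposited RPKM values imply, which move every log2 ratio up by 1.003, 7 were lower and 16 higher, against 2.94% and 45.2% of all genes. The collagen median was then 0.80, and 0.0912 with unscaled totals. No collagen that counted as higher or lower changed its sign under either scaling. The signs of 8 others did so with the RPKM totals, as given at each gene. Counts given below for classes and lists are to be read against the shares of all genes for the same totals.

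**Figure D1:**
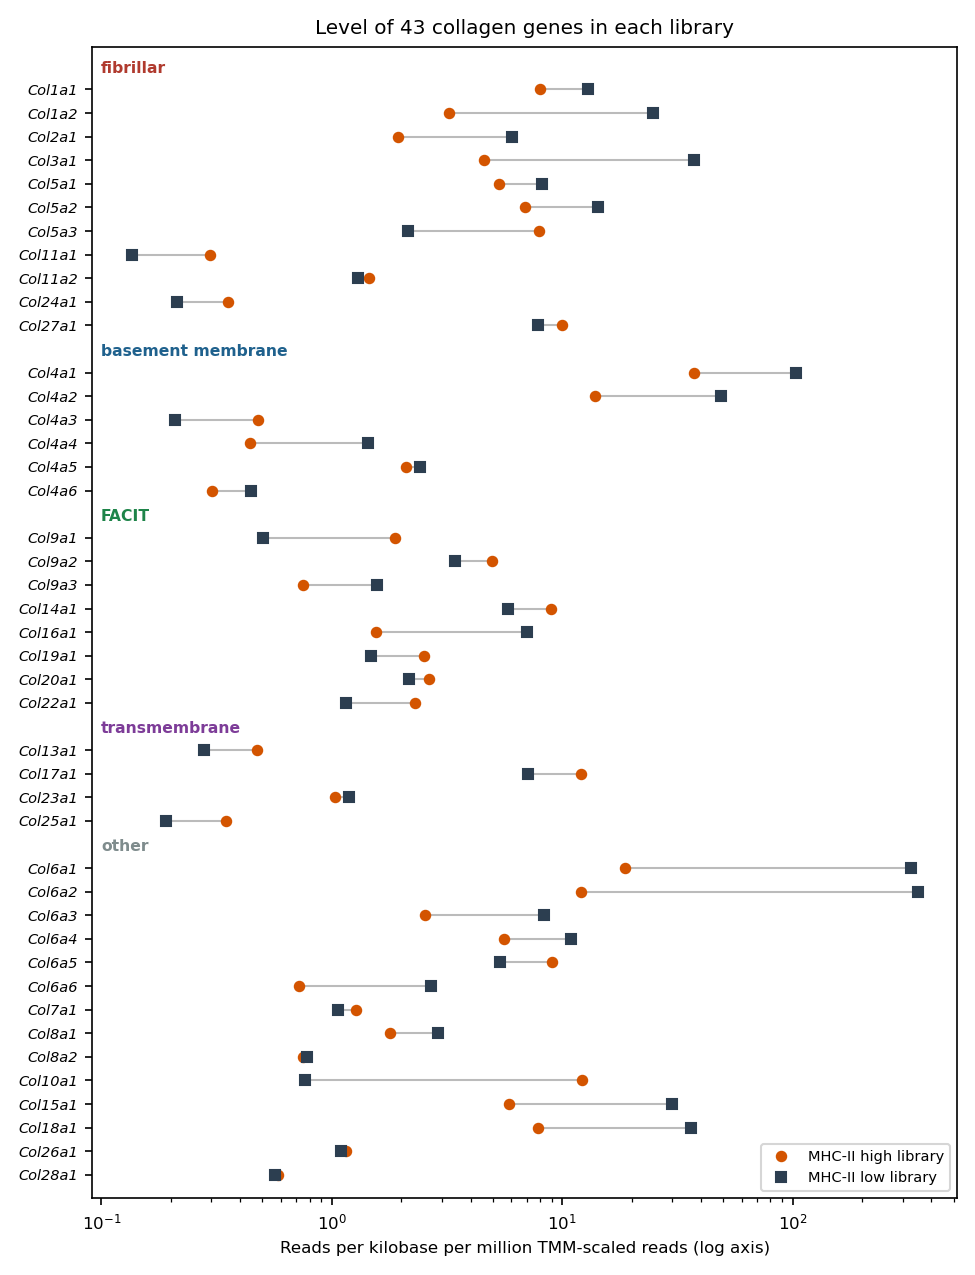
Level of each of the 43 collagen genes, in CPM per kilobase of transcript on a log axis, grouped by class, with circles for the MHC-II high and squares for the MHC-II low library (1 library each). Col6a1 and Col6a2 lie at 327 and 348 in the low and at 18.7 and 12.1 in the high library, and Col10a1 is the member with the widest gap the other way.

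Among fibrillar collagens, Col3a1, Col1a2 and Col2a1 were lower in the high library, the minor chain gene Col5a3 was higher, and Col1a1 was neither. Col3a1, the type III chain of pliable tissues and vessel walls, was at a level of 4.56 in the high library and 37.4 in the low one, 8.20-fold higher in low than in high (interval 7.90 to 8.51). Col1a2, the α2 chain of type I, the main collagen of skin and bone, was at 3.24 and 24.7, 7.63-fold higher in low than in high (7.29 to 7.99). Its partner Col1a1 was far closer, at 8.02 and 12.9, with a ratio of 0.623 (0.596 to 0.651) and a sign that turned with the RPKM totals. The chains of type I thus differed to unequal extents.

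Col2a1, the cartilage collagen that is also an autoantigen in arthritis, was at 1.94 in the high library and 6.07 in the low one, 3.13-fold higher in low than in high (2.91 to 3.36). Types V and XI are minor chains that start and set the width of fibrils. Col5a3 was the only fibrillar gene of 11 to be higher, at 7.96 against 2.14 (ratio 3.72, 3.44 to 4.04). Col5a2 lay just outside the threshold, at 6.87 and 14.2, since its ratio of 0.482 had an upper limit of 0.501. Col5a1 was at 5.33 and 8.15 (ratio 0.654), with a sign that turned with the RPKM totals.

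The type XI chains were low in both libraries. Col11a1 was at 0.297 and 0.135 on 330 and 50 reads, a ratio of 2.19 whose interval of 1.62 to 3.01 spans 2-fold. Col11a2 was at 1.46 and 1.29 (ratio 1.13). The developmental fibrillar genes Col24a1, at 0.354 and 0.213, and Col27a1, at 9.99 and 7.81, had ratios of 1.67 and 1.28. In all, 3 of 11 fibrillar genes were lower, 1 was higher and 7 were neither. Their median log2 ratio was -0.61, and 0.35 with the RPKM totals. With those totals Col2a1 was neither, Col11a2, Col24a1 and Col27a1 were also higher, and Col11a1 fell under the minimum, which left 2 lower and 4 higher.

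Of the basement membrane collagens, the widespread α1 and α2 chains were lower in the high library. Col4a1 was at 37.3 in the high library and 104 in the low one, 2.78-fold higher in low than in high (2.74 to 2.82), yet it still had the highest level of all collagens in the high library. Col4a2 was at 13.9 and 48.6, 3.50-fold higher in low than in high (3.42 to 3.58). Both chains held many reads, 13628 to 37732 per library, and the intervals of the folds do not overlap.

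The tissue-restricted type IV chains, which form the specialised networks of kidney, lung, eye and ear, had far lower levels, between 0.208 and 2.41. Col4a3, whose product carries the Goodpasture autoantigen, was at 0.477 in the high library and 0.208 in the low one on 627 and 91 reads. Its ratio of 2.29 had an interval of 1.83 to 2.88, so it was neither by the rule. It counted as higher with unscaled and with RPKM totals. Col4a4, its partner in the same network, went the other way, at 0.443 and 1.43, 3.23-fold higher in low than in high (2.86 to 3.64).

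Col4a5 was at 2.10 and 2.41 (ratio 0.873, 0.804 to 0.949), and its sign turned with unscaled and RPKM totals. Col4a6 was at 0.301 and 0.444 (ratio 0.678), with a sign that turned with the RPKM totals. Of the 6 type IV genes 3 were lower, 0 were higher and 3 were neither, with a median log2 ratio of -1.02. With the RPKM totals Col4a1, Col4a2 and Col4a4 were neither, so 0 were lower and 1, Col4a3, was higher, and the median was -0.0148.

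FACIT collagens lay mostly on the other side of 0, and 1 gene passed the threshold each way, Col9a1 as higher and Col16a1 as lower. Col9a1, a chain of the type IX collagen that coats cartilage fibrils, was at 1.88 in the high library and 0.502 in the low one on 1116 and 99 reads, a ratio of 3.74 (3.05 to 4.65). Its partner Col9a2 was at 4.97 and 3.41 (ratio 1.46, 1.32 to 1.61). The other partner, Col9a3, had the opposite sign, at 0.752 and 1.56 (ratio 0.481, 0.404 to 0.572).

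Col16a1, which is known from fibroblasts and smooth muscle, was the FACIT gene that was lower, at 1.55 and 7.02, 4.52-fold higher in low than in high (4.20 to 4.86). Col22a1, a collagen of tissue junctions such as that of muscle and tendon, lay just inside 2-fold, at 2.28 and 1.15 (ratio 1.98, 1.77 to 2.22). It counted as higher with unscaled and with RPKM totals. Col19a1, known from embryonic muscle and brain, was at 2.51 and 1.48 (ratio 1.70).

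Col14a1, which binds type I fibrils, was at 8.92 in the high library and 5.84 in the low one (ratio 1.53, 1.45 to 1.61), and the related Col20a1 at 2.64 and 2.16 (ratio 1.22). Over the 8 FACIT genes 6 were neither, 1 was higher and 1 lower, 12.5% each way, near the 14.5% and 10.9% of all genes. The median log2 ratio of the 8 FACIT genes was 0.58, with 6 above 0. With the RPKM totals Col14a1, Col19a1, Col20a1, Col22a1 and Col9a2 also counted as higher. That made 6 of 8 higher, against 45.2% of all genes, and the class median was 1.58.

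On the TMM-scaled totals no transmembrane collagen lay beyond 2-fold by its whole interval. Col17a1, the hemidesmosome collagen of basal keratinocytes and the autoantigen of bullous pemphigoid, was the main one, at 12.0 in the high library and 7.09 in the low one on 9968 and 1954 reads (ratio 1.69, 1.61 to 1.78). Col13a1, a collagen of the neuromuscular junction, was at 0.472 and 0.278 on 209 and 41 reads (ratio 1.69, 1.21 to 2.43). Col25a1, first known from amyloid plaques, was at 0.346 and 0.191 (ratio 1.81).

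Col23a1 was at 1.03 and 1.19 (ratio 0.870, 0.768 to 0.989), and its sign turned with unscaled and RPKM totals. The median log2 ratio of these 4 genes was 0.76. With the RPKM totals Col17a1 and Col25a1 counted as higher, Col13a1 fell under the minimum, and the median of the other 3 was 1.76. Genes for the partners of type XVII lay on the other side. Of 10 genes for hemidesmosome and anchoring partners 7 were lower in the high library (4 with the RPKM totals) and 0 higher, among them the basal keratin genes Krt5, at 768 against 5863 CPM, and Krt14, at 293 against 2306 CPM. The integrin genes Itga6 and Itgb4, whose products sit beside type XVII in the hemidesmosome and which were picked after their values were seen, had ratios of 0.672 and 0.427, and the sign of Itga6 turns with the RPKM totals.

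Type VI collagen forms beaded filaments between cells and the fibrils, and it held the widest differences of the family. Col6a2 was at a level of 12.1 in the high library and 348 in the low one on 6878 and 65978 reads, 28.9-fold higher in low than in high (28.2 to 29.6). Col6a1 was at 18.7 and 327 on 11351 and 65999 reads, 17.5-fold higher in low than in high (17.2 to 17.9). Among the 17438 genes compared, Col6a2 had the 23rd lowest ratio and Col6a1 the 50th. In the low library 99.2% of the genes compared had a lower level than Col6a2, against 64.1% in the high library.

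Col6a3, the long chain that completes the classic filament, was at 2.53 and 8.33, 3.30-fold higher in low than in high (3.16 to 3.44). Col6a4, Col6a5 and Col6a6 encode chains that can take its place in the trimer. Of these, Col6a6 was at 0.723 and 2.69, 3.72-fold higher in low than in high (3.39 to 4.10). Col6a4 was at 5.57 and 10.9 (ratio 0.510, 0.490 to 0.530), with a sign that turned with the RPKM totals. Col6a5 had the opposite sign, at 9.04 and 5.38 (ratio 1.68, 1.61 to 1.75). So 4 of 6 type VI genes were lower, 0 were higher, and the ratios of the chains that can replace one another lay on both sides of 1. With the RPKM totals Col6a3 and Col6a6 were neither and Col6a5 was higher, so that 2 type VI genes, Col6a1 and Col6a2, were lower and 1 was higher.

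The multiplexins Col15a1 and Col18a1, whose chains carry endostatin-like ends and lie in basement membrane zones of vessels and epithelia, were both lower in the high library. Col15a1 was at 5.86 and 29.9, 5.10-fold higher in low than in high (4.92 to 5.28), and Col18a1 at 7.84 and 36.1, 4.61-fold higher (4.47 to 4.76). Col7a1, which makes the anchoring fibrils of skin and is the autoantigen of epidermolysis bullosa acquisita, was at 1.28 and 1.06 (ratio 1.20, 1.09 to 1.33). Col7a1 counted as higher with the RPKM totals.

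Col10a1, the short-chain network collagen of hypertrophic cartilage, had the highest ratio of the family. It was at 12.2 in the high library and 0.761 in the low one on 5841 and 121 reads, a ratio of 16.04 (13.4 to 19.4) that was the 87th highest of all genes compared. It had the 4th highest level of the collagens in the high library and the 35th in the low one. The other short-chain genes, of type VIII in vessels and cornea, had ratios under 1. Col8a1 was at 1.78 and 2.89 (ratio 0.618), with a sign that turned with the RPKM totals, and Col8a2 at 0.748 and 0.782 (ratio 0.956, 0.802 to 1.14), with a sign that turned under 4 other scalings. Col26a1, known from testis and ovary, at 1.15 and 1.09, and Col28a1, known from peripheral nerve, at 0.582 and 0.568, had intervals of the ratio that included 1. Over the 14 genes of this mixed class 6 were lower, 1 was higher and 7 were neither, with a median log2 ratio of -0.83, and 0.17 with the RPKM totals.

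**Figure D2:**
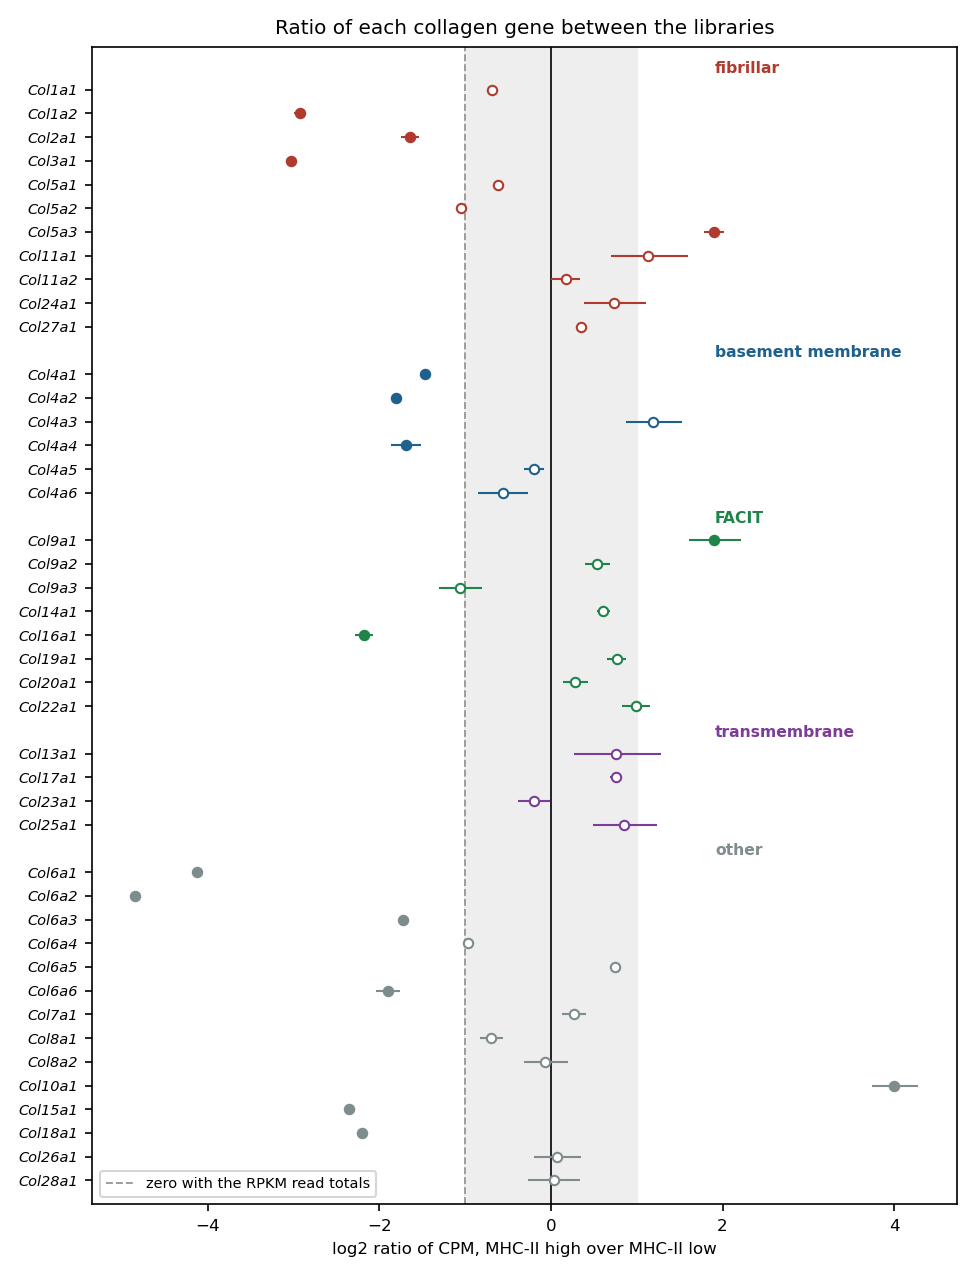
The log2 ratio of CPM, MHC-II high over MHC-II low, of the 43 collagens by class, with bars for the exact 95% interval of the reads (narrower than the point for genes of many reads). Filled points lie beyond 2-fold by their whole interval, the grey band marks 2-fold, and the dashed line shows where 0 falls with the RPKM read totals. The 13 filled points on the left include Col6a2 at -4.85, and the 3 on the right include Col10a1 at 4.003.

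Summed over the 43 genes, the collagen level was 224 in the high library and 1080 in the low one, 4.82-fold higher in low than in high. Most of that gap lay in a few genes. Without Col6a1 and Col6a2 the sums were 193 and 404, a 2.09-fold gap, and also without Col4a1 and Col4a2 they were 142 and 252, a 1.77-fold gap. These gaps depend on the library totals. With unscaled totals they were 3.95-fold, 1.71-fold and 1.45-fold. With the RPKM totals the gap over all 43 genes was 2.41-fold, that without Col6a1 and Col6a2 was 1.04-fold, and that also without Col4a1 and Col4a2 turned to the other direction, 1.13-fold higher in high than in low. In the low library Col6a2 and Col6a1 alone made 62.6% of the collagen level, and the 10 highest genes made 91.0%. In the high library the highest pair, Col4a1 and Col6a1, made 25.0%, and the 10 highest made 63.5%, so its collagen reads were spread over more genes.

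By class, fibrillar genes made 22.3% of the level in the high library and 10.7% in the low one, with sums of 50.01 and 115. Basement membrane genes made 24.3% and 14.5%, with sums of 54.5 and 157. Beaded filament genes made 21.7% and 65.1%, with sums of 48.6 and 703, so the order of the classes differed between the libraries. FACIT genes made 11.4% and 2.14%, yet their sums of 25.5 and 23.1 were close. Transmembrane genes made 6.19% and 0.810%, with sums of 13.9 and 8.75. These shares do not depend on the library totals. The multiplexins made 6.11% of the level in both libraries.

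**Figure D3:**
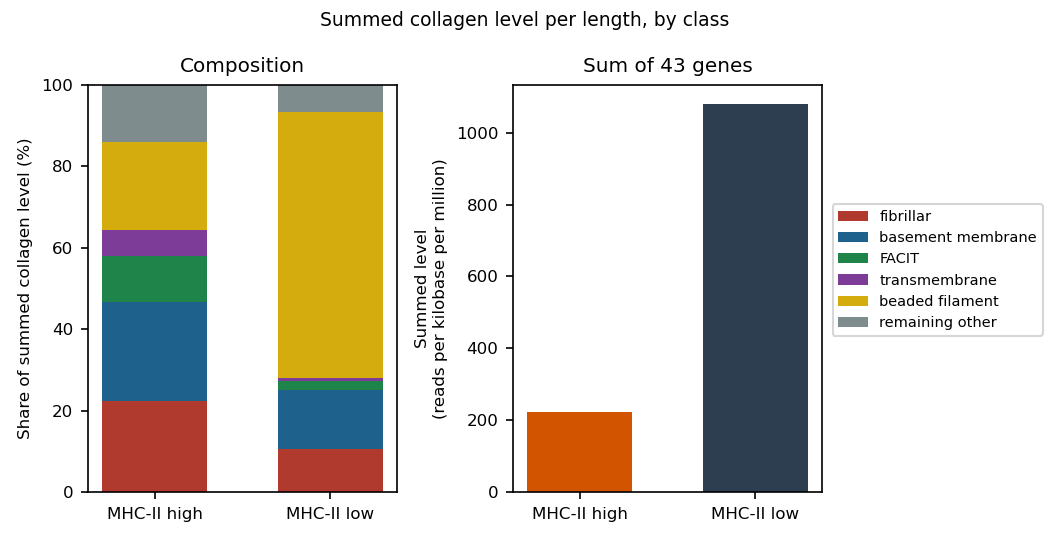
Left, each class as a percentage of the summed collagen level of 1 library. Right, the sum over 43 genes in CPM per kilobase of transcript, 224 in the high library and 1080 in the low one. Beaded filament (type VI) genes take 21.7% of the bar in the high library and 65.1% in the low one.

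Chains that assemble into 1 molecule did not keep the same balance in both libraries. The ratio of the levels of 2 chains within a library needs no library total. Type I collagen holds more α1 than α2 chains, and Col1a1 over Col1a2 was 2.47 in the high library (2.36 to 2.59) but 0.521 in the low one (0.499 to 0.544), a 4.75-fold difference (4.46 to 5.06). Col4a3 over Col4a4 was 1.07 and 0.146, a 7.39-fold difference (5.75 to 9.48). Col9a1 over Col9a3 was 2.50 and 0.321, a 7.79-fold difference (5.97 to 10.2), while Col9a1 over Col9a2 was 0.378 and 0.147, a difference of 2.57-fold (2.05 to 3.23).

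Other partners lay closer in balance. Col4a1 over Col4a2 was 2.69 and 2.13, 1.26-fold apart (1.23 to 1.30). Col4a5 over Col4a6 was 6.99 and 5.42, 1.29-fold apart (1.04 to 1.59), and Col5a1 over Col5a2 was 0.776 and 0.573, 1.36-fold apart (1.28 to 1.43). Col6a1 over Col6a2 was 1.55 and 0.938, 1.65-fold apart (1.598 to 1.703). The same 2 chains stood apart from the third of the filament, as Col6a1 over Col6a3 was 7.39 in the high library and 39.3 in the low one, 5.31-fold apart (5.07 to 5.56). Col5a3 over Col5a1 was 1.49 and 0.262, a 5.69-fold difference (5.20 to 6.22). Col8a1 over Col8a2, at 2.39 and 3.69, and Col11a1 over Col11a2, at 0.204 and 0.105, differed 1.55-fold and 1.95-fold.

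**Figure D4:**
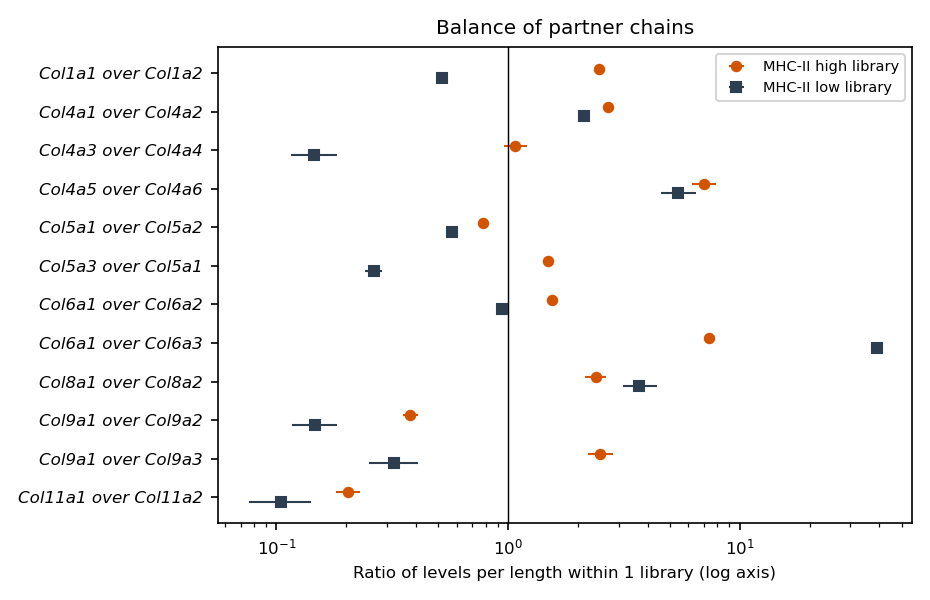
Ratio of the levels per length of partner chains within a library, on a log axis, with circles for MHC-II high and squares for MHC-II low and bars for the exact 95% interval of the reads. Col1a1 over Col1a2, Col4a3 over Col4a4, Col5a3 over Col5a1, Col6a1 over Col6a2 and Col9a1 over Col9a3 lie at or above 1 in the high library and below 1 in the low one.

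Several collagen genes lie side by side in the genome, known from the order of genes in the RefSeq table with no protein-coding gene between them. Col6a1 and Col6a2 had log2 ratios of -4.13 and -4.85, and Col4a1 and Col4a2, which start back to back on opposite strands, -1.47 and -1.81. Col4a6 and Col4a5, at -0.56 and -0.20, were both neither, and their signs turned with the RPKM totals, that of Col4a5 with unscaled totals too. Some other neighbours had unlike values. Col4a4 and Col4a3, also known as a back-to-back pair, had -1.69 and 1.19. The type VI genes Col6a6, Col6a5 and Col6a4, in that order, had -1.90, 0.75 and -0.97, and the sign of Col6a4 turned with the RPKM totals. Col3a1 and Col5a2 had -3.04 and -1.05, and Col9a1 and Col19a1 had 1.90 and 0.77. As the kit kept no strand, reads where such genes overlap cannot be told apart.

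Genes that make, modify, bind and break down collagen, counted together with matrix and hemidesmosome partners, were mostly lower or within 2-fold in the high library. The counts include the list of hemidesmosome and anchoring partners and that of basement membrane partners, each with 7 lower of 10. Of 88 listed genes 84 passed the minimum, and 42 of these were lower and 5 higher, against 10.9% and 14.5% of all genes, with a median log2 ratio of -1.10. With the RPKM totals 20 were lower and 17 higher, against 2.94% and 45.2% of all genes. Of 15 genes that hydroxylate and glycosylate procollagen 7 were lower and 1 was higher. Their median of -0.90 turns positive with the RPKM totals. The lysyl hydroxylase gene Plod1 was at 8.71 against 52.5 CPM, and P3h4, a partner of that enzyme family, at 3.30 against 20.4 CPM. The cyclophilin gene Ppib was at 129 and 297 CPM. P4hb, a subunit of prolyl 4-hydroxylase that is also a general disulfide isomerase, was at 425 and 610 CPM, which was within 2-fold.

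Among 10 folding and secretion genes past the minimum procollagen chaperones and general ones had unlike values. Serpinh1, which encodes the procollagen chaperone HSP47, was at 104 CPM in the high library and 946 CPM in the low one, 9.07-fold higher in low than in high. Fkbp10, another procollagen chaperone gene, was at 4.23 and 46.0 CPM, 10.9-fold higher. The general endoplasmic reticulum chaperone genes Hspa5, at 2532 and 1496 CPM, and Calr, at 1447 and 1266 CPM, were within 2-fold. In all, 3 of these genes were lower and 0 higher (2 and 5 with the RPKM totals), and Mia3 was listed at 0 in both libraries. Of 8 genes that remove propeptides 3 were lower, among them Pcolce, which enhances that cleavage, at 11.2 and 38.4 CPM, and Tll1 and Tll2, at 1.20 and 4.31 and at 0.379 and 2.64 CPM. Bmp1, the main protease of this step, was at 48.8 and 99.6 CPM and was neither. With the RPKM totals 0 of the 7 propeptide genes past the minimum were lower and 1 was higher. The median log2 ratio of that list then turned from -0.88 to 0.27.

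The 5 genes of the crosslinking oxidases split. Loxl4 was higher in the high library, at 29.7 against 5.24 CPM (ratio 5.66, 5.005 to 6.435), while Loxl1, at 2.77 and 15.0 CPM, was 5.43-fold higher in the low one, and Lox, picked after its values were seen, was 4.78-fold higher there. Loxl2, at 64.8 and 46.4 CPM, and Loxl3, at 41.9 and 26.3 CPM, were neither. With the RPKM totals 3 of the 5 crosslinking genes were higher and 2 lower. Small proteoglycans and other proteins on fibrils were lower in 6 of 7 cases. The decorin gene Dcn was at 57.2 and 535 CPM, the fibromodulin gene Fmod at 3.86 and 71.9, Lum at 8.37 and 92.7, and the matrix glycoprotein gene Sparc at 65.4 and 508. Of 10 basement membrane partners 7 were lower and 0 higher (2 and 2 with the RPKM totals), with the laminin chain gene Lamb1 at 77.4 and 319 CPM, the perlecan gene Hspg2 at 49.96 and 223, and Agrn at 110 and 385.

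Collagen receptors and breakdown genes were more mixed. Of 8 receptor genes past the minimum 3 were lower and 0 higher, and Itga10 was not matched. The receptor kinase genes Ddr1, at 87.0 and 305 CPM, and Ddr2, at 7.13 and 36.0 CPM, were 3.51 and 5.05 times as high in the low library, and the integrin gene Itgb1 was at 228 and 326 CPM. Of 11 breakdown genes 3 were higher and 4 lower. The collagenase gene Mmp13, known from hypertrophic cartilage, was at 13.2 against 0.552 CPM on 2010 and 28 reads (ratio 23.8, 16.4 to 36.0). The gelatinase gene Mmp2 was lower in the high library by 11.0-fold, at 9.34 and 103 CPM. Mmp14, at 122 and 161 CPM, and the inhibitor gene Timp3, at 894 and 450 CPM, were neither. The medians of the receptor and breakdown lists, -0.51 and -0.39, turn positive with the RPKM totals.

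Markers of cells other than epithelium differed in direction between cell types. Of 9 fibroblast markers, of which Dcn and Lum are also in the proteoglycan list, 7 were lower in the high library and 0 higher (median log2 ratio -3.22). Among them Gsn, which epithelia also express, was at 280 and 2251 CPM and Dpt at 3.42 and 59.8. Pdgfrb, picked after its values were seen, had the opposite sign, at 40.8 and 23.3 CPM (ratio 1.75, 1.64 to 1.86). With unscaled and with RPKM totals 7 fibroblast markers were lower and 1 was higher. All 8 endothelial markers were lower (median -3.71). Pecam1 was at 7.60 and 163 CPM, Vwf at 32.7 and 142, and Emcn at 0.105 and 12.8 on 16 and 650 reads. Of 7 mural cell markers 4 were lower and 0 higher (summed CPM 572 and 997), against 2 and 3 with the RPKM totals, with Acta2 at 48.6 and 463 and Mcam at 6.84 and 49.7, while Rgs5, at 235 and 175, and Myh11, at 200 and 121, were within 2-fold.

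The 13 lower collagens were called by their direction, so a shared direction with the fibroblast and endothelial sums cannot show a link. The summed fibroblast level was 7.37-fold and the summed endothelial level 7.17-fold higher in the low library. Gsn made 280 of the 442 CPM of the fibroblast sum in the high library and 2251 of the 3263 CPM in the low one. Over single markers the fold of low over high ran from 0.572 to 17.5 (fibroblast) and from 2.33 to 122 (endothelial). Col6a2 was 28.9-fold and Col6a1 17.5-fold higher in the low library. Of 4 erythroid markers 2 were lower and 0 higher, at a summed 65.8 and 2145 CPM, with Hbb-bs at 13.7 and 772 and Hba-a1 at 32.8 and 1342. The epithelial list held 1 higher and 2 lower genes of 6, Krt5 and Krt14, also in the hemidesmosome list, being the lower ones.

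Several cartilage markers were higher in the high library, as were Col10a1 and Col9a1, which are named here because they were higher. The type IX partners Col9a2, with a ratio of 1.46, and Col9a3, with 0.481, were neither. Of 6 chondrocyte markers past the minimum 4 were higher in the high library and 0 lower. Comp, a protein of cartilage matrix, was at 11.4 against 0.473 CPM on 1742 and 24 reads (ratio 24.1, 16.2 to 37.7), and Cnmd at 27.9 against 1.79 CPM (ratio 15.6, 12.7 to 19.4). The cartilage regulator gene Sox9 did not share this, at 158 and 213 CPM, and Matn1 was at 22.3 and 21.4 CPM. Col2a1, the main collagen of the same tissue, was lower in the high library, as given with the fibrillar genes, and the summed CPM of the list was 244 and 243, most of it Sox9. All 4 mature mTEC markers were higher in the high library, with Fezf2 at 466 and 154 CPM and Cd86 at 31.7 and 2.64.

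Of 5 dendritic cell and macrophage markers past the minimum 3 were higher, 0 lower and 2 neither. Csf1r, at 20.5 and 4.69 CPM, and Xcr1, at 4.19 and 1.22, were higher, and Sirpa, at 28.4 and 38.0, was neither. Schwann cell markers, of interest for Col28a1, held 1 lower gene of 5 (0 lower and 4 higher with the RPKM totals), Ngfr, at 18.6 and 49.5 CPM, while S100b was at 3.02 and 1.63. T lineage markers were split, with Cd4 at 15.3 and 5.59 and Rag1 at 5.86 and 18.8 CPM. No marker of any list was at 0 reads in either library. The part of these lists in the differences of the collagens was not tested.

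**Figure D5:**
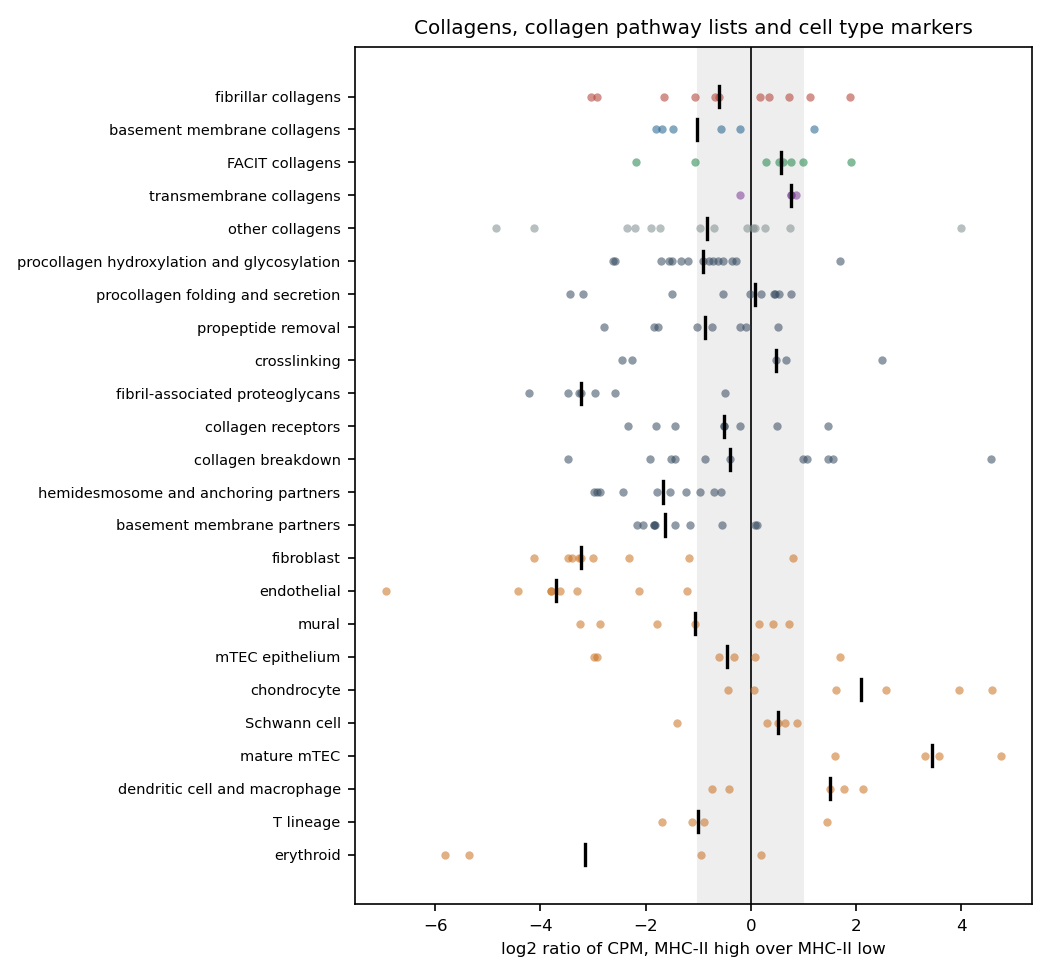
The log2 ratio of CPM, MHC-II high over MHC-II low, of each gene past the minimum (points) and the median of its group (vertical bars) for the 5 collagen classes, 9 lists of collagen pathway genes and 10 lists of cell type markers, with 2-fold as the grey band. Medians of the fibroblast (-3.22), proteoglycan (-3.22) and endothelial (-3.71) lists lie far to the left, and those of the mature mTEC (3.45) and chondrocyte (2.10) lists to the right.

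Transcript choice made little difference to the ratios. For the 6 collagens with more than 1 listed transcript, the log2 ratios of the transcripts differed by at most 0.11, in Col6a6. Across the 43 genes the Spearman correlation of transcript length with the log2 ratio was 0.11, and across all 17438 genes 0.05, given as a description since genes of 1 library pair are not independent. No collagen had the same pair of counts as another gene.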

How the data were processed

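Poly-A RNA of sorted mTEC was measured in 1 library per group, each from a pool of 3 mice. Per the submitters' processing notes, CASAVA, Bowtie 1.0.0 and bedtools were used with the mouse build mm9; the sources used here state neither settings nor annotation. The authors deposited a read count, a length and an RPKM value for each RefSeq transcript, per the file headers. The deposited RPKM values rest on totals of 213854095 (high) and 142330178 (low) reads, larger than the counts on genes, and served as an alternative scaling only.

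Lines that were no transcripts (18 and 36) were dropped, and copies of a transcript in the high table were summed. Of 29920 accessions, 29800 were in both tables with the same length. Symbols came from a RefSeq table of GRCm38.p6 (29352) and GENCODE vM21 (174), and 394 had none. As the builds differ, no coordinates are given. Coding sequences were matched by accession.

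TMM-scaled totals, 152834157 and 50769794 reads, came from edgeR 4.0.16 in R 4.3.3, with factors from genes whose mean CPM reached 1. Ratios and exact intervals used scipy 1.17.1 and were tested on simulated data. A count of 0 would allow up to 3 reads, equal to 0.0196 CPM (high) and 0.0591 CPM (low). With 1 library per group, intervals cover counting error only. Reads carry no molecular identifiers, so copies of 1 molecule count as separate reads, and intervals may be too narrow even for that error. Alternatives were other totals (unscaled, RPKM, DESeq2 1.42.0 size factors, TMM over all genes), other transcripts, minimums and folds, and wider class borders.

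The members, classes and lists were chosen with earlier results of these data known. Values are given for every member. From each list the text names the 2 genes with the most reads and the 2 with the largest absolute log2 ratio. Col2a1, Col4a3, Col7a1 and Col17a1 are always given as known autoantigens.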

Additional observations from a re-analysis of the deposited data

How the results depend on the processing

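With 1 library per group no replicate could be left out, and depth limits mainly Col13a1 and Col11a1, on 41 and 50 reads in the low library. No paired analysis was possible because each group has 1 library and no test. Unscaled totals gave 5 higher collagens, a median log2 ratio of 0.0912, a summed log2 ratio of -1.98 and 9 higher pathway genes. RPKM read totals gave 16 higher and 7 lower collagens, a median of 0.80, a summed log2 ratio of -1.27, and 17 higher and 20 lower pathway genes. DESeq2 size factors gave a summed log2 ratio of -2.16 and 8 higher pathway genes. TMM factors from all genes, an alternative chosen after seeing the data, gave -2.15 and 8. The main summed log2 ratio was -2.27. A minimum mean CPM of 5, under which 11 members were not tested, gave a median of -0.69. Intervals beyond 1.5-fold gave 9 higher collagens and 9 higher pathway genes, and beyond 3-fold 2 higher pathway genes. The median log2 ratio of all genes shifted by 0.29 with unscaled, 1.01 with RPKM and 0.12 with DESeq2 totals. Members with another call numbered 2 with unscaled totals (Col22a1 and Col4a3), 21 with RPKM totals, and 0 with DESeq2 totals, TMM factors from all genes, either other transcript choice or no minimum. Col2a1, Col4a1 and Col4a4 were no longer lower beyond 3-fold. With types VII, XV and XVIII added, the basement membrane median was -1.47.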
